A study of Mus musculus with 18 samples.

Results

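The complement genes described here were chosen by name and were the 3 chains of C1q (C1qa, C1qb and C1qc), the convertase proteases C2 and Cfb, the thioester components C3 and C4b, and the receptors C3ar1 and C5ar1. They made up 9 of the 30072 genes in the deposited tables, and all 9 passed the filter on low counts that left 15054 genes for testing. RNA-seq had been run on heart tissue of wild-type outbred CD-1 mice of both sexes, at least 8 weeks old, with 6 mice in each of 3 groups. The control mice were littermates that received isoflurane anesthesia and imaging but no radiation, and the 2 other groups were collected 2 weeks and 6 weeks after a single 25 Gy dose to the whole heart (post-IR). The labels name the septum between the ventricles as the tissue, the hearts were otherwise healthy, and the sex of each mouse was not labelled. The time at which the controls were collected was not labelled either, so age and time since treatment may differ between the groups.

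Complement is a cascade of plasma and tissue proteins that tags microbes, debris and dying cells. The classical pathway starts when C1q binds a surface and its partner proteases cut C4 and C2, the alternative pathway builds its convertase from C3 and factor B (Cfb), and both cut C3. The released fragments C3a and C5a attract and activate myeloid cells through C3ar1 and C5ar1, and tissue macrophages are the main known source of C1q.

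The summed estimated counts ranged from 11522987 to 15501019 per mouse, so that 3 counts corresponded to 0.194 to 0.260 CPM, the unit of counts scaled to a common library total. The median share of mitochondrially encoded counts was 23.2% in controls, 20.2% at 2 weeks and 17.4% at 6 weeks, and the scaling of the CPM values below was computed from all genes with TMM factors (trimmed mean of M values). The defining cardiomyocyte markers were abundant in every mouse, with a sum over 6 genes of 23446 to 44556 CPM, and 6 of 6 passed the test as lower at 6 weeks. Control mouse 4 and 2-week mouse 5 stood apart in a sum of 4 atrial markers, at 1583 and 1247 CPM against at most 811 CPM in the other mice. Control mouse 4 also had the highest control value for 8 of the 9 complement genes. For the 9 genes, calls that change without these mice are given with and without them. For the other complement genes, only the counts of calls are given both ways.

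The genes lay on 4 chromosomes (coordinates of GRCm38 with GENCODE M21 annotation). C1qb (chr4:136880129-136886187), C1qc (chr4:136889804-136893065) and C1qa (chr4:136895917-136898803) were neighbours on the minus strand. C4b (chr17:34728380-34743882), Cfb (chr17:34856374-34862518) and C2 (chr17:34862604-34898265) lay together in the class III region of the major histocompatibility complex, with C3 further along the same chromosome (chr17:57203970-57228136). C3ar1 (chr6:122847138-122856161) and C5ar1 (chr7:16246743-16259540) were on chromosomes of their own. All 9 genes were on the minus strand and were annotated as protein coding.

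The 250 bases before the RefSeq start were read for C1qb, C1qc, C3, C3ar1 and C5ar1 (GRCm38.p6, minus strand, 5′ to 3′). They are shown for the pair of C1q chains, which moved together, and for C3, the gene of highest level. Capitals mark matches on either strand to any of 5 motifs, which were TTCNNNGAA (gamma-activated site), the interferon-stimulated response element (a pair of GAAA blocks 2 bases apart), GAGGAA (PU.1 core), TTGCNNAA (C/EBP) and the NF-kappaB site (GGGA and CC with 4 bases between them).
C1qb (chr4:136886201-136886450): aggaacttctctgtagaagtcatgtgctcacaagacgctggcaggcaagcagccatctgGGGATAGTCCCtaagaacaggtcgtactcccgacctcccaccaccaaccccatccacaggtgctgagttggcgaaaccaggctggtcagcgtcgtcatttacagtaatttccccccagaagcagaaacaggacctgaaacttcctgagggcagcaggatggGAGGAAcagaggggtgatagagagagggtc
C1qc (chr4:136892915-136893164): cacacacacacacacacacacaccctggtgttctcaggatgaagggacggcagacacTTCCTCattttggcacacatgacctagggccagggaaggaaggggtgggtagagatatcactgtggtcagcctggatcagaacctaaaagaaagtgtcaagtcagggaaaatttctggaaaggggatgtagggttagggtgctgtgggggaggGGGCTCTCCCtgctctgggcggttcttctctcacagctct
C3 (chr17:57228137-57228386): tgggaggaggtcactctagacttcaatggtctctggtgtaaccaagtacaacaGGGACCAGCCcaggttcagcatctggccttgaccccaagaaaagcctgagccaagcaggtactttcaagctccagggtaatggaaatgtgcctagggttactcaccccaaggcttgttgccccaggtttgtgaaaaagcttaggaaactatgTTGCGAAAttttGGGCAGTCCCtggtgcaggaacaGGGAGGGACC
Both C1q windows held the PU.1 core, 30 to 25 bases before the start in C1qb and 193 to 188 bases before it in C1qc, and 23.1% of the 27025 windows of this length held it as well. The 3 printed windows each held the NF-kappaB letters, which 17.3% of all windows held, and the first capitals of the C1qb window are a pair of overlapping matches. C3 held the C/EBP letters 45 to 38 bases before its start, as did 9.55% of all windows. The gamma-activated site (7.18% of windows) and the interferon-stimulated response element (3.04%) matched none of these 5 windows, and the C3ar1 and C5ar1 windows held none of the 5 motifs. These are matches of letters and were not tested as sites of binding. Distances are counted from the RefSeq start. The C1qc, C3ar1 and C5ar1 windows overlap the genes as GENCODE places them, because RefSeq and GENCODE differ on those starts.

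At 2 weeks post-IR, C1qa was the only one of the 9 genes that passed the test (a Benjamini-Hochberg adjusted P under 0.05), and it was higher than in controls. Values after ± are the SE of a log2 fold change. Across all tested genes, 3.09% were called higher and 1.93% lower in the same comparison, 0.737% were called higher with a log2 fold change above 1, and 1.96% had all irradiated mice above all controls. The log2 fold changes of the 9 genes ranged from 0.40 to 1.33 with a median of 0.58, against a median of -0.00 for all genes. With edgeR, 5 of the 9 were higher and 0 lower at an unadjusted P under 0.05, and DESeq2 gave the same counts of 5 and 0. Without the 2 mice with high atrial markers, 3 of the 9 passed, C1qa, Cfb and C3ar1.

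At 6 weeks post-IR, 6 of the 9 genes passed as higher than in controls: C1qa, C1qb, C1qc, Cfb, C3ar1 and C5ar1. The background was 13.5% of genes called higher and 11.5% called lower. A log2 fold change above 1 with a pass was found for 5 of the 9 and for 5.27% of all genes, and the groups did not overlap for 3 of the 9, the C1q chains, and for 5.8% of all genes above controls. The median log2 fold change of the 9 was 1.13, against -0.02 for all genes. C2, C3 and C4b did not pass. With edgeR, 7 of the 9 were higher and 0 lower at an unadjusted P under 0.05, with the same counts in DESeq2. Without the 2 mice with high atrial markers 7 passed, and the added gene was C4b.

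Between 2 and 6 weeks, C1qa and C1qb passed as higher at 6 weeks, and for both every 6-week mouse lay above every 2-week mouse. Without the 2 mice with high atrial markers 4 passed, with C1qc and Cfb added. For all genes, 3.31% were called higher, 2.01% lower, 0.963% higher with a log2 fold change above 1, and 2.27% had groups that did not overlap with 6 weeks above. Both comparisons with controls used the same 6 control mice, so their values are given side by side and were not counted as separate evidence.

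**Figure D1:**
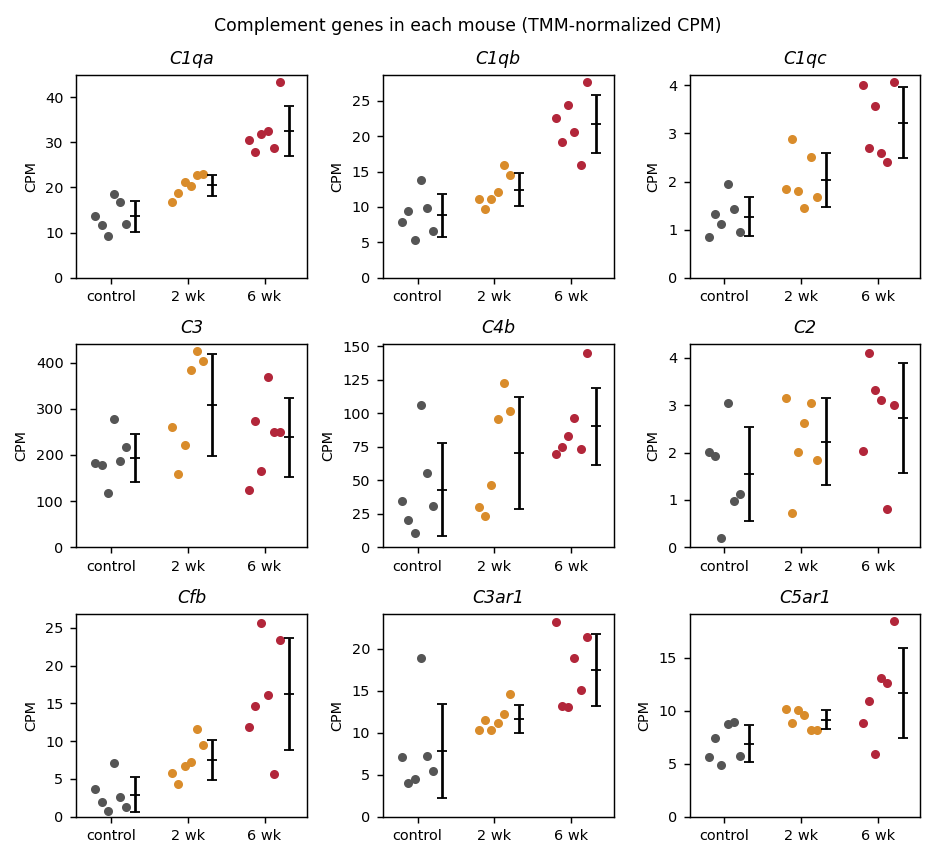
TMM-normalized CPM of the 9 complement genes (y axes, each from 0) in control, 2-week and 6-week mice (x axes), 1 point per mouse, with the mean and SD of 6 mice as a dash and bar to the right of each group. The 6-week points of C1qa (27.97 to 43.3 CPM) lie above all control points (9.35 to 18.6 CPM), while those of C3 overlap the controls.

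C1q is assembled from the chains A, B and C, and the transcripts of its chains rose at 6 weeks by similar factors. C1qa ranged from 9.35 to 18.6 CPM in controls (median 12.8), from 16.9 to 23.1 CPM at 2 weeks (median 20.7) and from 27.97 to 43.3 CPM at 6 weeks (median 31.1). The 6-week mice lay above all others, and the 2-week group overlapped the controls only through control mouse 4. The log2 fold change of C1qa was 0.58 (± 0.145, adjusted P = 0.0272) at 2 weeks and 1.24 (± 0.144, adjusted P = 9.92e-06) at 6 weeks, a fold of 1.49 and 2.37, and it was 0.66 (± 0.140, adjusted P = 0.0145) between the 2 times. The 2-week call was lost when any 1 of control mice 2, 3 and 6 or 2-week mice 3, 5 and 6 was left out, with log2 fold changes of 0.50 to 0.69 and adjusted P of 0.00822 to 0.0624 over the 18 fits that each left out 1 mouse.

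C1qb ranged from 5.27 to 13.9 CPM in controls (median 8.61), from 9.79 to 15.98 CPM at 2 weeks (median 11.7) and from 16.01 to 27.6 CPM at 6 weeks (median 21.6). The lowest 6-week mouse and the highest 2-week mouse nearly met. In the test, C1qb had log2 fold changes of 0.49 at 2 weeks (± 0.191, adjusted P = 0.146), 1.29 at 6 weeks (± 0.188, adjusted P = 7.79e-05) and 0.80 between the times (± 0.182, adjusted P = 0.0200).

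C1qc was the least abundant chain, at 0.846 to 1.94 CPM in controls (median 1.22), 1.44 to 2.89 CPM at 2 weeks (median 1.82) and 2.41 to 4.06 CPM at 6 weeks (median 3.13). The 6-week mice lay above all controls and overlapped the 2-week mice. For C1qc the log2 fold changes were 0.66 at 2 weeks (± 0.241, adjusted P = 0.125), 1.34 at 6 weeks (± 0.225, adjusted P = 0.000292) and 0.68 between the times (± 0.205, adjusted P = 0.0594). In bulk tissue, more cells that carry a transcript and more of the transcript per cell cannot be told apart, here or for any gene below.

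On the deposited TPM scale, which accounts for transcript length, C1qa lay above C1qb in 18 of 18 mice. The ratio of C1qa to C1qb TPM had a median of 1.66 in controls, 1.57 at 2 weeks and 1.46 at 6 weeks, and the ratio of C1qa to C1qc had medians of 11.8, 11.8 and 11.7. The ratios overlapped between all groups, so the chains kept about the same proportions at each time, with C1qc the lowest in every mouse. The chains share no stretches of 31 bases with other genes in the GENCODE transcripts.

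Cfb, the protease of the alternative pathway convertase, had the largest log2 fold change of the 9 genes at both times. Cfb ranged from 0.740 to 7.15 CPM in controls (median 2.24), from 4.33 to 11.6 CPM at 2 weeks (median 6.97) and from 5.71 to 25.6 CPM at 6 weeks (median 15.4). Both irradiated groups overlapped the controls only through control mouse 4, and at 6 weeks mouse 5 was far below the other 5 mice, whose lowest value was 11.9 CPM. The log2 fold change was 1.33 at 2 weeks (± 0.423, adjusted P = 0.0762), 2.43 at 6 weeks (± 0.406, adjusted P = 0.000271) and 1.10 between the times (± 0.362, adjusted P = 0.0812), and the 6-week value was a fold of 5.39. Without the 2 mice with high atrial markers, the 2-week log2 fold change was 1.66 (adjusted P = 0.0379).

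C2 supplies the protease of the classical and lectin pathway convertase and is a paralog of Cfb. It was near the detection floor in some mice, at 0.185 to 3.05 CPM in controls (median 1.52), 0.722 to 3.16 CPM at 2 weeks (median 2.32) and 0.804 to 4.09 CPM at 6 weeks (median 3.06). The 3 groups overlapped over most of their range. C2 had log2 fold changes of 0.49 at 2 weeks (± 0.415, adjusted P = 0.544) and 0.77 at 6 weeks (± 0.405, adjusted P = 0.185), and neither passed.

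Both genes share sequence with an annotated readthrough gene, Gm20547 (chr17:34856412-34882042), which holds 75.5% of the 31-base stretches of Cfb and 40.2% of those of C2. Estimated counts were assigned to Gm20547 in only 3 mice, control mice 2, 3 and 5 (15.4, 9.70 and 2.72 counts), and were 0 in the other 15. With these counts added to each gene, Cfb had a log2 fold change of 2.27 at 6 weeks (± 0.371, adjusted P = 0.000231), which passed, and C2 of 0.48 (± 0.359, adjusted P = 0.367), which did not.

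**Figure D2:**
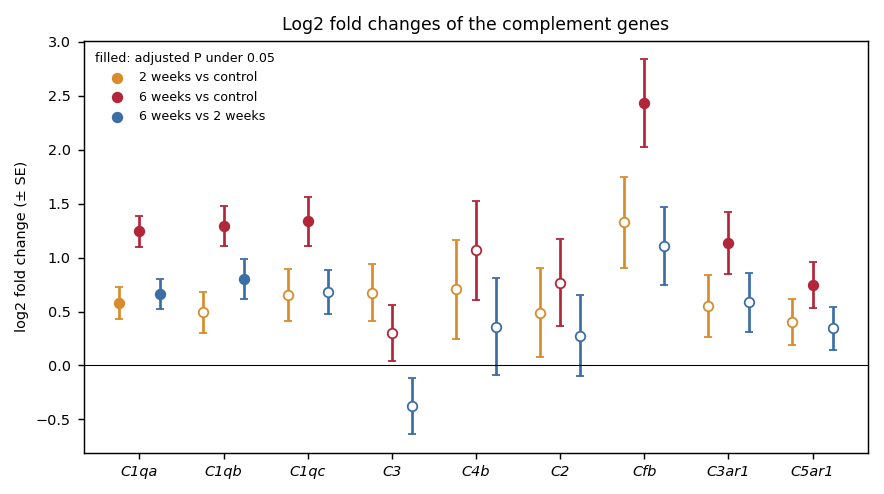
Log2 fold changes (y axis) of the 9 complement genes (x axis) at 2 weeks against control, at 6 weeks against control and at 6 against 2 weeks, with bars of 1 SE and filled points for an adjusted P under 0.05. Cfb has the largest value at 6 weeks (2.43), the C1q chains lie at 1.24 to 1.34, and C3 lies at 0.30.

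C3, the component on which all pathways meet, did not pass in any of the 3 comparisons. It ranged from 118 to 278 CPM in controls (median 184), from 158 to 425 CPM at 2 weeks (median 322) and from 125 to 368 CPM at 6 weeks (median 249). At 2 weeks 3 mice lay above 383 CPM and the other 3 at or below 260 CPM, within the control range. The log2 fold change of C3 was 0.68 at 2 weeks (± 0.263, adjusted P = 0.146), 0.30 at 6 weeks (± 0.262, adjusted P = 0.441) and -0.37 between the times (± 0.262, adjusted P = 0.446), the only negative value among the 9 genes.

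C4b, the component that forms the classical and lectin convertase with C2, varied most among the abundant members in controls. It ranged from 10.3 to 107 CPM in controls (median 32.5), a 10.4-fold range, from 23.5 to 123 CPM at 2 weeks (median 71.3) and from 69.4 to 145 CPM at 6 weeks (median 78.7). All 6-week mice lay above 5 of the 6 controls, and control mouse 4 lay above 5 of the 6-week mice. On the log2 scale the difference from controls was 0.71 at 2 weeks (± 0.458, adjusted P = 0.409) and 1.07 at 6 weeks (± 0.460, adjusted P = 0.0996). Without control mouse 4 the 6-week value was 1.58 (± 0.429, adjusted P = 0.0111), and it did not pass when any other mouse was left out. C4b shares 48.3% of its 31-base stretches with its near-identical neighbour C4a, which was not analysed here, so the assignment of reads between the copies is uncertain.

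Summed expression of 4 Y-linked genes split each group into 3 mice with high values, at 129 CPM or more, and 3 with low values, at 1.75 CPM or less. In every group mice 4, 5 and 6 had the high values and mice 1, 2 and 3 the low ones. This split therefore cannot be told apart from the order of the replicate numbers. C3 and C4b are given for each subset in all groups. At 2 weeks, C4b lay at 96.1 to 123 CPM in the mice with high Y-linked values and at 23.5 to 46.5 CPM in those with low values, and C3 lay at 384 to 425 CPM and 158 to 260 CPM. In controls, C4b lay at 30.5 to 107 CPM in the mice with high and 10.3 to 34.4 CPM in those with low Y-linked values, and C3 at 187 to 278 CPM and 118 to 182 CPM. At 6 weeks, the C4b ranges were 73.0 to 145 CPM and 69.4 to 83.0 CPM and those of C3 were 249 to 368 CPM and 125 to 274 CPM, so that the subsets overlapped. Among mice with low Y-linked values, C4b at 6 weeks lay above both other groups with no overlap. With Y-linked expression as a covariate, C4b had a log2 fold change of 1.30 at 6 weeks (± 0.335, adjusted P = 0.00796) and C3 of 0.66 at 2 weeks (± 0.183, adjusted P = 0.0418). The subsets also lay apart for some other members. At 2 weeks C1qb lay at 12.2 to 15.98 CPM with high and 9.79 to 11.2 CPM with low Y-linked values. Cfb lay at 7.19 to 11.6 CPM and 4.33 to 6.75 CPM at that time. At 6 weeks C5ar1 lay at 12.6 to 18.5 CPM and 5.96 to 10.97 CPM. For C1qa, C1qc, C2 and C3ar1 the subsets overlapped in every group. The splits, with 3 mice on each side, were picked after the values were seen. They were not tested, and no share over all genes was computed for them.

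C3ar1, the receptor for C3a, ranged from 4.0 to 18.9 CPM in controls (median 6.30), from 10.3 to 14.7 CPM at 2 weeks (median 11.3) and from 13.1 to 23.2 CPM at 6 weeks (median 17.0). Apart from control mouse 4, the highest control was at 7.18 CPM, below every irradiated mouse. For C3ar1 the log2 fold changes were 0.55 at 2 weeks (± 0.289, adjusted P = 0.297), 1.13 at 6 weeks (± 0.284, adjusted P = 0.00634) and 0.59 between the times (± 0.274, adjusted P = 0.224). Without control mouse 4 the 2-week value was 1.03 (± 0.189, adjusted P = 0.00455) and passed.

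C5ar1, the receptor for C5a, ranged from 4.90 to 9.0 CPM in controls (median 6.6), from 8.16 to 10.2 CPM at 2 weeks (median 9.22) and from 5.96 to 18.5 CPM at 6 weeks (median 11.8). Only the spread at 6 weeks was wide, with 2 mice inside the control range, which were among those with low Y-linked values. For C5ar1 they were 0.40 at 2 weeks (± 0.211, adjusted P = 0.296), 0.75 at 6 weeks (± 0.209, adjusted P = 0.0129) and 0.34 between the times (± 0.202, adjusted P = 0.349). With sample quality weights (limma voom), the 6-week value was 0.60 (adjusted P = 0.0703) and did not pass. Hc, the gene of C5, was below the filter with at most 3 counts in any mouse.

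Per transcript length, C3 was the highest of the 9 genes by median in every group, at 35.5 TPM in controls, 72.6 TPM at 2 weeks and 60.2 TPM at 6 weeks. C1qa came next at 13.6, 25.1 and 40.6 TPM, and C3 and C1qa did not overlap in controls or at 2 weeks but did at 6 weeks. C1qb and C4b followed, with medians of 9.28 and 7.27 TPM in controls and 28.8 and 22.9 TPM at 6 weeks, and these neighbours overlapped in every group. C5ar1, C3ar1, Cfb, C1qc and C2 filled the lower ranks in controls at 2.95, 1.64, 1.15, 1.01 and 0.793 TPM, each overlapping the next. At 6 weeks Cfb stood above the receptors by median at 9.53 TPM, in 5 of 6 mice above C5ar1, with ranges that overlapped.

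The summed TPM of the 9 genes had a median of 73.6 in controls, 143 at 2 weeks and 178 at 6 weeks. C3 made up 42.2% to 54.1% of that sum in controls, 41.3% to 52.3% at 2 weeks and 21.0% to 41.3% at 6 weeks. The ratio of C3 to Cfb TPM, the substrate against the protease of the alternative convertase, was 17.3 to 51.6 in controls (median 28.4), 14.6 to 25.1 at 2 weeks (median 18.7) and 3.04 to 17.9 at 6 weeks (median 5.79). The ratio of C3 to C4b had medians of 5.16, 3.53 and 2.37, with overlap between the groups. These ratios describe the mix of transcripts and were not tested.

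Most markers of macrophages were higher at 6 weeks, as were 6 of the 9 complement genes. Of 10 macrophage markers, 1 passed as higher at 2 weeks (Aif1) and 8 at 6 weeks, and Cd163 was lower at 6 weeks (log2 fold change -0.98, adjusted P = 0.00977). The sum of the 10 markers ranged from 176 to 509 CPM in controls, 317 to 399 CPM at 2 weeks and 422 to 556 CPM at 6 weeks, and the control maximum was again mouse 4, with the next control at 271 CPM. Monocyte markers, 4 of 4 higher at 6 weeks, had sums of 2.25 to 8.53 CPM, 5.58 to 16.8 CPM and 15.3 to 21.1 CPM. Other lists held higher calls at 6 weeks as well. Of 5 endothelial markers 2 were higher and 1 lower, and 1 of 3 tested T cell and 1 of 2 tested B cell markers were higher. The T cell sum was low, at 0.833 to 1.73 CPM in controls and 2.48 to 3.25 CPM at 6 weeks. None of the markers in these lists was at 0 in every mouse, and their part in the complement values was not tested.

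**Figure D3:**
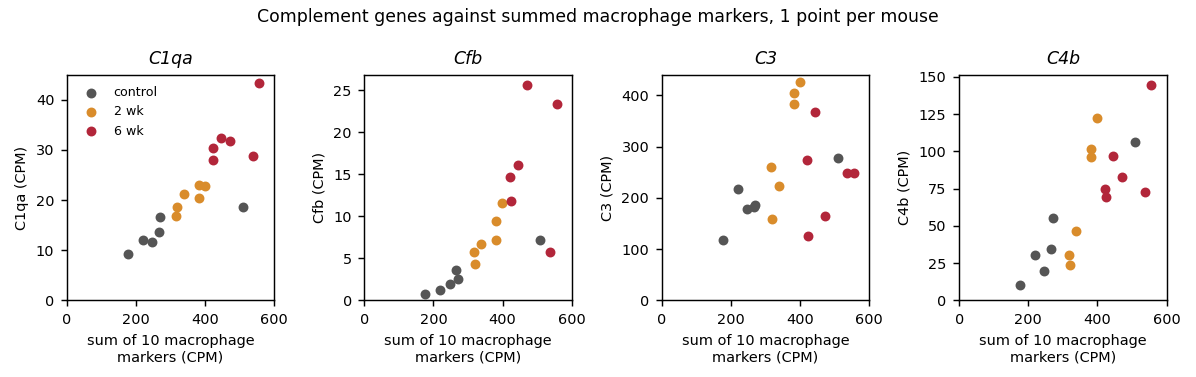
CPM of C1qa, Cfb, C3 and C4b (y axes, from 0) against the sum of 10 macrophage markers in CPM (x axes), 1 point per mouse, coloured by group. C1qa and the sum are both highest at 6 weeks, and control mouse 4 lies at 509 CPM on the x axis, apart from the other controls at 176 to 271 CPM.

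Per 100 CPM of the macrophage sum, the values of all 9 genes overlapped between 6 weeks and controls. The median of C1qa was 5.21 in controls, 5.77 at 2 weeks and 6.97 at 6 weeks, a ratio of 1.34 between 6 weeks and controls, and the ratios for C1qb and C1qc were 1.60 and 1.43. Cfb had the largest ratio at 4.13, with medians of 0.864, 1.94 and 3.56. C3 had a ratio of 0.664 and C5ar1 of 0.914.

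Fibroblasts are another known source of C3 and C4, and 0 of 7 fibroblast markers passed as higher and 2 (Gsn and Pdgfra) as lower at 6 weeks with edgeR. Their sum ranged from 2414 to 4410 CPM in controls, 2228 to 3133 CPM at 2 weeks and 1955 to 2899 CPM at 6 weeks. Per 100 CPM of it, C1qa, C1qb, C1qc, Cfb, C4b, C3ar1 and C5ar1 lay above controls without overlap at 6 weeks, with ratios of medians from 2.49 for C5ar1 to 8.58 for Cfb. C3 and C2 overlapped the controls on this scale. On CPM only the 3 C1q chains lay above controls without overlap. Gsn had the highest mean of the 7 markers, 1554 CPM in controls and 869 CPM at 6 weeks, so it weighs most in this scale. Of the 7 markers, 2 (Col1a1 and Tcf21) had positive log2 fold changes at 6 weeks. The fibroblast sum itself had a median of 2797 CPM in controls and 2069 CPM at 6 weeks. It was highest in control mouse 4, which lowers the values of that mouse on this scale. No share over all genes was computed for it. The liver is the main source of plasma complement, and 2 of 4 hepatocyte markers, Alb and Apoa1, reached no more than 1 and 3 counts. The other 2, Serpina1a and Ttr, were tested at control means of 0.557 and 0.367 CPM and did not pass at either time, and the sum of the 4 was at most 2.24 CPM in any mouse. Of 6 neutrophil markers, Ly6g and Mpo had at most 1 count, and of the 2 that were tested Csf3r was higher at 6 weeks (1.28 ± 0.367, adjusted P = 0.0154), from a mean of 1.19 CPM in controls to 3.01 CPM. The neutrophil sum had medians of 1.64, 2.16 and 3.50 CPM in the 3 groups, and its part in the complement values was not tested.

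The other complement genes were taken from a list of 46, of which 33 were tested. At 2 weeks 4 of the 33 were higher and 2 lower, where 3.09% of all tested genes were called higher and 1.93% lower. At 6 weeks 7 were higher and 5 lower, where the shares of all genes were 13.5% and 11.5%. Between the times Itgax alone was higher, where 3.31% of all genes were. Without the 2 mice with high atrial markers, 2 passed at 2 weeks, 11 at 6 weeks and 3 between the times. The values by gene below are from the fit of all mice, and most of the 2-week calls were lost without those 2. The median log2 fold change of the 33 was -0.03 at 2 weeks and -0.06 at 6 weeks, against 0.58 and 1.13 for the 9 genes above. Both lists were chosen with earlier results of these data known, so the choice may have shaped this contrast, which was not tested.

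Among the proteases that bind C1q, C1ra was higher at 2 weeks (log2 fold change 0.58, ± 0.150, adjusted P = 0.0339), where its groups did not overlap, and had a value of 0.38 at 6 weeks (adjusted P = 0.0730). C1rb was lower at 6 weeks (-2.24, adjusted P = 0.0300), and its control mean of 2.37 CPM rested on mice 4 and 5 at 7.35 and 4.76 CPM, with the other 4 at most at 0.716 CPM. In the lectin pathway, 0 of 4 tested genes passed at either time with edgeR. The values at 6 weeks were 0.31 for Masp1 (adjusted P = 0.0935) and -0.53 for Colec11 (adjusted P = 0.0830), and the mannose-binding lectins Mbl1 and Mbl2 and the ficolin Fcnb were at 0 counts in all mice.

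In the alternative pathway, properdin (Cfp), which stabilizes the convertase, was higher at both times, from a mean of 5.30 CPM in controls to 8.61 CPM at 2 weeks (0.69, adjusted P = 0.0197) and 9.32 CPM at 6 weeks (0.80, adjusted P = 0.00134). Cfd, the protease that cuts factor B and is abundant in fat, ranged from 0.620 to 26.4 CPM at 6 weeks and had a log2 fold change of 0.33 (± 0.838, adjusted P = 0.823). Of the terminal components, C8g (-0.62 at 6 weeks, adjusted P = 0.157) and C6 (0.71, adjusted P = 0.468) did not pass, C9 was at 0, and C8a and C8b had at most 1 count.

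Among soluble regulators, vitronectin (Vtn) was higher at 6 weeks (0.76, adjusted P = 0.00137), with groups that did not overlap. Among membrane regulators, Cd59a, which blocks the membrane attack complex, was lower at 2 weeks (-0.52, adjusted P = 0.0277) and at 6 weeks (-0.50, adjusted P = 0.00820). Its mean on the deposited TPM scale, without the TMM factors, was 25.6 in controls, 22.0 at 2 weeks and 24.7 at 6 weeks. Cd46 was lower at 6 weeks at a low level (1.03 to 0.526 CPM in the means, adjusted P = 0.0358), and Csmd1 was higher (0.94, adjusted P = 0.00611).

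Genes listed as receptors made up 4 of the 7 higher calls at 6 weeks. Itgam and Itgb2, which pair as complement receptor 3, had log2 fold changes of 1.32 (adjusted P = 8.14e-05) and 1.27 (adjusted P = 0.000314). Itgax, the alpha chain of complement receptor 4, went from a mean of 0.315 CPM in controls to 1.55 CPM at 2 weeks and 5.04 CPM at 6 weeks (3.92, ± 0.620, adjusted P = 0.000162), where 1 mouse reached 13.3 CPM and the others 1.87 to 5.47 CPM. Cd93, also an endothelial surface protein, was higher at both times (0.57, adjusted P = 0.0260, and 1.03, adjusted P = 4.67e-05). Vsig4, a receptor for C3b on resident macrophages, was lower at both times, at a mean of 2.03 CPM in controls, 0.756 CPM at 2 weeks (-1.43, adjusted P = 0.0357) and 0.500 CPM at 6 weeks (-2.07, adjusted P = 0.00127). C1qbp, a mitochondrial protein that also binds C1q, was lower at 6 weeks (-0.38, adjusted P = 0.00292). On the deposited TPM scale, without the TMM factors, its mean was 81.2 in controls and 85.2 at 6 weeks, so it was not lower there.

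**Figure D4:**
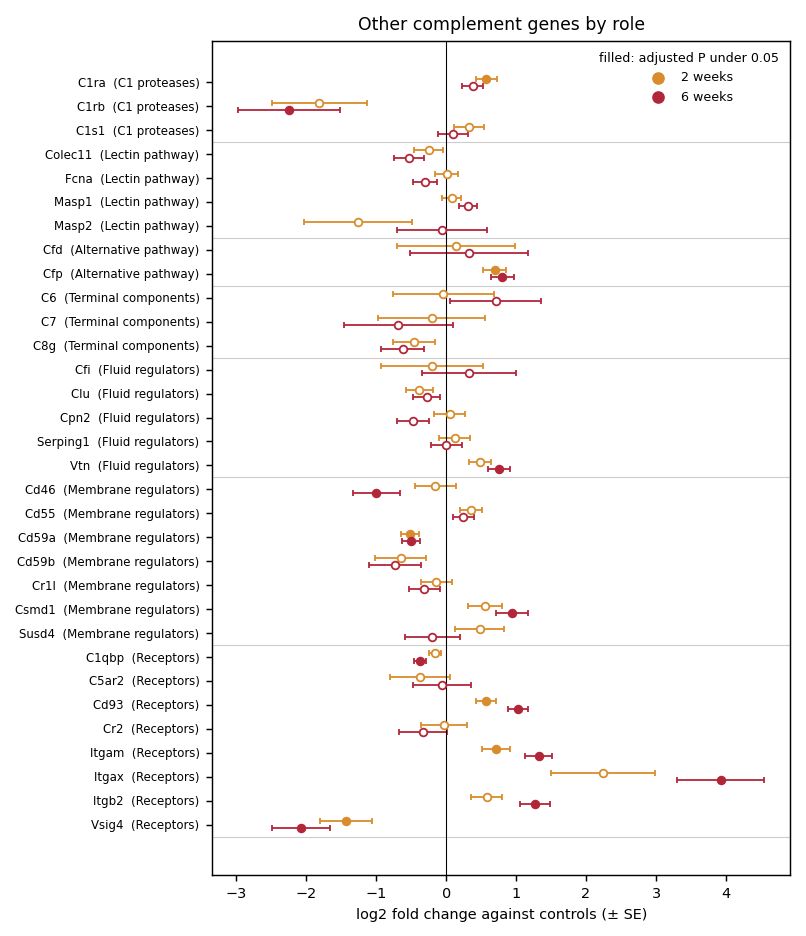
Log2 fold changes (x axis, bars of 1 SE) of other complement genes that were tested, grouped by role (y axis), at 2 weeks and 6 weeks against control, with filled points for an adjusted P under 0.05. Itgax lies furthest to the right (3.92 at 6 weeks) and C1rb and Vsig4 furthest to the left (-2.24 and -2.07).

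Likeness between genes was measured within groups, as the root mean square difference of standardized deviations from the group means over 18 mice, where 0 is the same pattern and the median over all genes was 1.41. For the mean of the C1q chains the most alike genes included Myof (0.481), the lysosomal macrophage protein Cd68 (0.495), Laptm5 (0.518) and Adamts20 (0.536). Cfb (0.634), C3ar1 (0.742) and C4b (0.743) were also nearer to C1q than most genes, while C3 (1.23) and C5ar1 (1.11) were further off. For C4b the most alike were the lipid carrier Apoe (0.398), 9330159F19Rik (0.447) and Ecm1 (0.474), and for C3 they were Grina, Vit and Efemp1 (0.475 to 0.493). These values share the libraries they come from, and control mouse 4 enters all of them.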

How the data were processed

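RNA of 18 mice (3 groups of 6) had been sequenced, quantified with Salmon (version 1.0 in the submitters' processing notes) and summarised per gene on GRCm38. The authors deposited estimated counts and TPM for 30072 genes per the file headers, and no column was left unused. The estimated counts were rounded, genes reaching 0.23 CPM in 6 or more mice were tested, and all 3 groups were fitted together in edgeR 4.0.16 (R 4.3.3) with TMM scaling and the quasi-likelihood test. The Benjamini-Hochberg adjustment ran over all tested genes. P-values set the difference between group means against the spread between mice. SEs are the log2 fold change divided by the square root of F. DESeq2 1.42.0, limma 3.58.1 and further settings were alternatives. The Salmon estimates divide reads between near-identical copies, and the deposited TPM values were used for levels between genes. Genes were named from a reference table that matched 29301 of 30072 identifiers. The complement genes, gene lists and naming rule (all 9 members; other complement genes past both thresholds, with the 2 of smallest P in each role; the nearest 5 or 3 genes by likeness) were chosen with earlier results of these data known. Further named genes were chosen after their values were seen. No 2 mice had identical values. The 3-count floor covers counting error only. The deposited labels call the radiation gamma and the study's methods X-ray. Values of 2 genes that the naming rule selects are not reported here.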

Additional observations from a re-analysis of the deposited data

Results flagged for a closer look

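In the 27 sets of 6 values (9 complement genes in 3 groups), 3 had a mouse further from the others than Dixon's 95% limit for 6 samples, and chance gives about 1 in 20. They were the highest 6-week mouse for C1qa (43.3 CPM) and for C4b (144.9 CPM), which were the same animal, mouse 6, and the highest control mouse for C3ar1 (18.9 CPM), mouse 4. The log2 fold changes between 2 and 6 weeks of C1qa (0.66) and C1qb (0.80) passed the direct test of the difference between the times.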

How the results depend on the processing

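No log2 fold change of the 9 complement genes changed sign under any setting. At 6 weeks against control, 6 to 9 of the 9 genes passed under the other settings and 6 to 7 when 1 mouse was left out. At 2 weeks, where C1qa alone passed, the count was 2 with DESeq2, 4 with library size only, 7 with log2(TPM + 1), 7 with log2(TPM + 0.1), 2 with Y-linked expression as a covariate and 3 without the 2 mice above 1000 CPM of atrial markers, a setting added after the data were seen. Leaving out 1 mouse gave 0 to 4, with 4 without control mouse 4, 2 without 6-week mouse 5 and 0 in 6 fits, in which 3 to 5 genes had an unadjusted P under 0.05 in edgeR. Between the times, where 2 passed, the count was 4 with limma voom, 4 with log2(TPM + 1), 4 without the 2 mice with high atrial markers, and 2 to 5 with 1 mouse left out (5 without control mouse 4). Library size alone moved the median change over all genes (log2) to 0.15 at 2 weeks, 0.24 at 6 weeks and 0.11 between the times, and log2(TPM + 1) moved it to 0.18, 0.29 and 0.11 (0.24, 0.37 and 0.15 with log2(TPM + 0.1)), and the counts under those scalings include this shift. For the other complement genes, 1 passed between the times, against 4 with DESeq2, 2 with limma voom, 4 with library size only and 3 without the 2 mice with high atrial markers, and 6 passed at 2 weeks against 2 without those mice. With 1 mouse left out the other complement genes that passed numbered 1 to 7 at 2 weeks (1 without 2-week mouse 5, 2 without control mouse 3 or 2-week mouse 6, 3 without control mouse 5 or 6 or 2-week mouse 1 or 3), 10 to 14 at 6 weeks and 0 to 4 between the times (0 in 8 edgeR fits, in which 6 to 9 had an unadjusted P under 0.05, and 2, 3 and 4 without control mouse 6, 4 and 3), fits also added after the data were seen. C4b at 6 weeks passed in 7 of 12 other settings. No share of all genes at an unadjusted P was computed for the fits that left out 1 mouse.

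Same-numbered mice were not closely alike, with correlations of -0.0828 to 0.106 over 18 pairs and 3 of 18 mice best correlated with their own number. The numbers did follow the Y-linked split, with high values in mice 4, 5 and 6 of each group. The replicate block therefore also takes up that split. With the replicate block, 1 of the 9 genes passed at 2 weeks, 7 at 6 weeks and 2 between the times, and C4b at 6 weeks had a log2 fold change of 1.35 (adjusted P = 0.0152), the only call among the 9 genes that the block changed. The lowest counts in any mouse were 2.33 for C2, 7.98 for Cfb and 11 for C1qc, against the floor of 3 counts.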
